A study of Homo sapiens with 12 samples.

Results

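The 10 cornified envelope genes SPRR1A, SPRR1B, SPRR3, IVL, TGM1, CNFN, SCEL, CSTA, PPL and EVPL were followed in lung cancer cells that had been kept for 8 days in erlotinib, an inhibitor of the EGFR tyrosine kinase, or in its solvent DMSO. The genes were chosen by name with earlier results of these same arrays known, and they are 10 of the 19775 genes that had a probe set with a single gene symbol. Because the differences between erlotinib and DMSO in each line, and between the lines in DMSO, belong to that choice, they and every comparison built from them are given for these genes as descriptions with no p-value. 4 groups of 3 arrays each were compared: PC9 in 2 µM erlotinib, PC9 in DMSO, HCC827 in 2 µM erlotinib and HCC827 in DMSO. PC9 and HCC827 are established EGFR-mutant non-small cell lung cancer lines, so each line stands for 1 tumour. All cells grew in RPMI with 10% fetal bovine serum, and medium with fresh agent was given once, after 4 days. The protocol plated 8000000 cells in flasks for erlotinib and 1500000 in dishes for DMSO, whereas the design text names flasks for all groups. Plating and drug therefore cannot be told apart in any difference between erlotinib and DMSO. No label states that the replicates are independent cultures. Their spread may therefore be technical, and p-values measure only the spread between these samples.

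The cornified envelope is the tough protein shell that replaces the plasma membrane of a terminally differentiated squamous cell. Soluble precursors such as involucrin, the small proline-rich proteins and cystatin A are crosslinked by transglutaminases beneath the membrane, onto a scaffold of plakin proteins that lies at the desmosomes. The envelope is typical of epidermis and other stratified epithelia, and airway epithelium can turn on several of its precursors when it undergoes squamous metaplasia.

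Each value below is a MAS5 signal, the linear brightness that the array software gives for a probe set after it scales all arrays to a common mean. Signals near the median of the table, 13, lie in a range where the values cannot show whether a transcript was detected, since no detection calls were used here. A gene was tested where at least 1 of the 4 group means reached 13, which 13185 genes did. 9 of the 10 genes passed. IVL did not, with a highest group mean of 12.4 in erlotinib-treated PC9, and TGM1 lay just inside with 15.0 in the same group. TGM1 and CSTA passed through erlotinib-treated PC9 alone, their other group means being under 13. Differences are on the log2 scale of signal + 8, and a gene is called higher or lower where limma's adjusted p, corrected over all tested genes, is below 0.05. Signals are compared between samples for 1 probe set at a time, never between genes. In bulk RNA, fewer cells that express a gene and less RNA per cell cannot be told apart.

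All arrays had been scaled to one trimmed mean. Their median signals lay between 13.8 and 14.5 in erlotinib-treated PC9, between 11.1 and 12.5 in DMSO-treated PC9, between 12.6 and 14.2 in erlotinib-treated HCC827 and between 12.2 and 12.6 in DMSO-treated HCC827. The ratio of 3′ to 5′ actin signal, a sign of RNA integrity, was 2.22 ± 0.271, 2.18 ± 0.152, 3.03 ± 0.598 and 2.17 ± 0.0563 in those groups (SD, n = 3 each), so that it was highest and most variable in erlotinib-treated HCC827. DUSP6, a feedback phosphatase of the ERK pathway, fell to 68.1 ± 7.23 in erlotinib-treated PC9, against 1358 ± 272 in DMSO, and to 366 ± 42.3 in erlotinib-treated HCC827, against 1252 ± 68.4 in DMSO. The 5 epithelial markers summed to between 10590 and 14439 on every array, while the 4 measured leukocyte markers were all under the filter. The 5 lung epithelial markers summed to between 84.2 and 125 on the PC9 arrays and between 1858 and 2520 on the HCC827 arrays. Of 3 endothelial markers PECAM1 and CDH5 passed the filter. That list summed to between 653 and 988 on the PC9 arrays and between 9 and 16.8 on the HCC827 arrays. Of 5 fibroblast markers COL1A1 and LUM passed the filter, and the list summed to 383 to 465 in erlotinib-treated PC9, against 77.9 to 104 in DMSO, and to 613 to 680.2 in erlotinib-treated HCC827, against 154 to 181 in DMSO. Their part in the results below was not tested. Of the squamous markers, KRT5 averaged 294 in erlotinib-treated and 842 in DMSO-treated PC9 and at most 3.73 in either HCC827 group. KRT10 averaged 574 and 607 in those PC9 groups, and 668 in erlotinib-treated and 804 in DMSO-treated HCC827. KRT1 and KRT14 were under the filter in all 4 groups, and TP63 was not analysed here.

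4 of the genes, IVL, SPRR1A, SPRR3 and SPRR1B, stand near each other in that order in the epidermal differentiation complex of chromosome 1. Their promoters are printed below because SPRR1A and SPRR1B differed in the same direction in both lines while SPRR3 did not. The sequences are RefSeq's for GRCh38.p14, plus strand, from 250 bases before to 50 bases after the transcript's start, 5′ to 3′. They cover chr1:152983831-152984130 for SPRR1A, chr1:153030953-153031252 for SPRR1B, chr1:153001499-153001798 for SPRR3 and chr1:152908296-152908595 for IVL. Capitals mark exact matches on either strand to TGANTCA, the core of sites for the AP-1 factors FOS and JUN, to AGGAAG, a core bound by ETS factors, and to TATAAA, the TATA box.
SPRR1A: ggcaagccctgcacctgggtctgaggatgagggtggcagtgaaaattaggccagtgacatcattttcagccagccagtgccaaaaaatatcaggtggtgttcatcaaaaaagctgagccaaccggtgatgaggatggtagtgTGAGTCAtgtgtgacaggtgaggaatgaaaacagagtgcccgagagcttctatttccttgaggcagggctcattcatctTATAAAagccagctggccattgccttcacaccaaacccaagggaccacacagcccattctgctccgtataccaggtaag
SPRR1B: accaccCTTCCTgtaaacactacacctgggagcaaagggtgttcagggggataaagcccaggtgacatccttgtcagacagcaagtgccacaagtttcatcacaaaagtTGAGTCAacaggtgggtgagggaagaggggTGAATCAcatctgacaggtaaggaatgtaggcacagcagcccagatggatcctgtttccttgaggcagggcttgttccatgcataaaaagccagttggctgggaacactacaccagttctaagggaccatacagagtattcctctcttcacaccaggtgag
SPRR3: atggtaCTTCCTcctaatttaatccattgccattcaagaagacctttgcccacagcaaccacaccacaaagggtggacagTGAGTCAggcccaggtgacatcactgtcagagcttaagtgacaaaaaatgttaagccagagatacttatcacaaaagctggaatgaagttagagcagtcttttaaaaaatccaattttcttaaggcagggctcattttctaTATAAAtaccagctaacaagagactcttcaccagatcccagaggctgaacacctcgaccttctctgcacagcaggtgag
IVL: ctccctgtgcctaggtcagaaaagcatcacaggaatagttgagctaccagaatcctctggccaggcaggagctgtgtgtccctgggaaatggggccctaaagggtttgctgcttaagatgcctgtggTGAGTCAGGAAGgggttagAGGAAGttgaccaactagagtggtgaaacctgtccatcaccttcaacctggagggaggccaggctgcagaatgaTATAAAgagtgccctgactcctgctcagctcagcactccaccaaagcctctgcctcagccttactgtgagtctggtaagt

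Each of the 4 promoters held TGANTCA, which 7.71% of 35116 RefSeq promoters of this length hold. It begins at -108 in SPRR1A, at -141 and -111 in SPRR1B, at -170 in SPRR3 and at -123 in IVL, counted from the start. A TATAAA begins at -29 in SPRR1A, at -29 in SPRR3 and at -30 in IVL, and 11.5% of promoters hold one. AGGAAG is in 33.6% of promoters. In IVL its first copy, at -117, overlaps the TGANTCA match in a run of 12 letters, TGAGTCAGGAAG. SPRR1B and SPRR3 have AGGAAG on the minus strand at -244 each. Promoter entries were given for 6 of the 10 genes, with CNFN on chromosome 19 and SCEL on chromosome 13 as the other two. SCEL holds TGANTCA at -49, and CNFN holds none of the 3 motifs. The SPRR1A and SPRR1B promoters were 66.5% identical over 325 aligned columns, against 50.3% to 56.2% for the other pairs of the 4. A match to these letters is a description of the sequence and does not show a bound site.

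In PC9, 6 of the 9 tested genes were higher in erlotinib (SPRR3, TGM1, CNFN, CSTA, PPL and EVPL) and 3 were lower (SPRR1A, SPRR1B and SCEL), with erlotinib and DMSO arrays not overlapping for any of the 9. Across all tested genes 36.3% were called higher and 28.3% lower in PC9, and 64.9% did not overlap. In HCC827, 3 were higher (CNFN, CSTA and PPL), 4 were lower (SPRR1A, SPRR1B, SPRR3 and SCEL) and 2 were not called (TGM1 and EVPL). 8 of the 9 did not overlap between treatments in HCC827, TGM1 being the exception. The background in HCC827 was 32.2% called higher, 19.5% called lower and 62.1% not overlapping. The median difference of the 9 genes was 0.68 in PC9 and -0.01 in HCC827, beside 0.05 and 0.07 over all tested genes. Since the genes were chosen with these contrasts known, nothing is read from those counts.

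**Figure D1:**
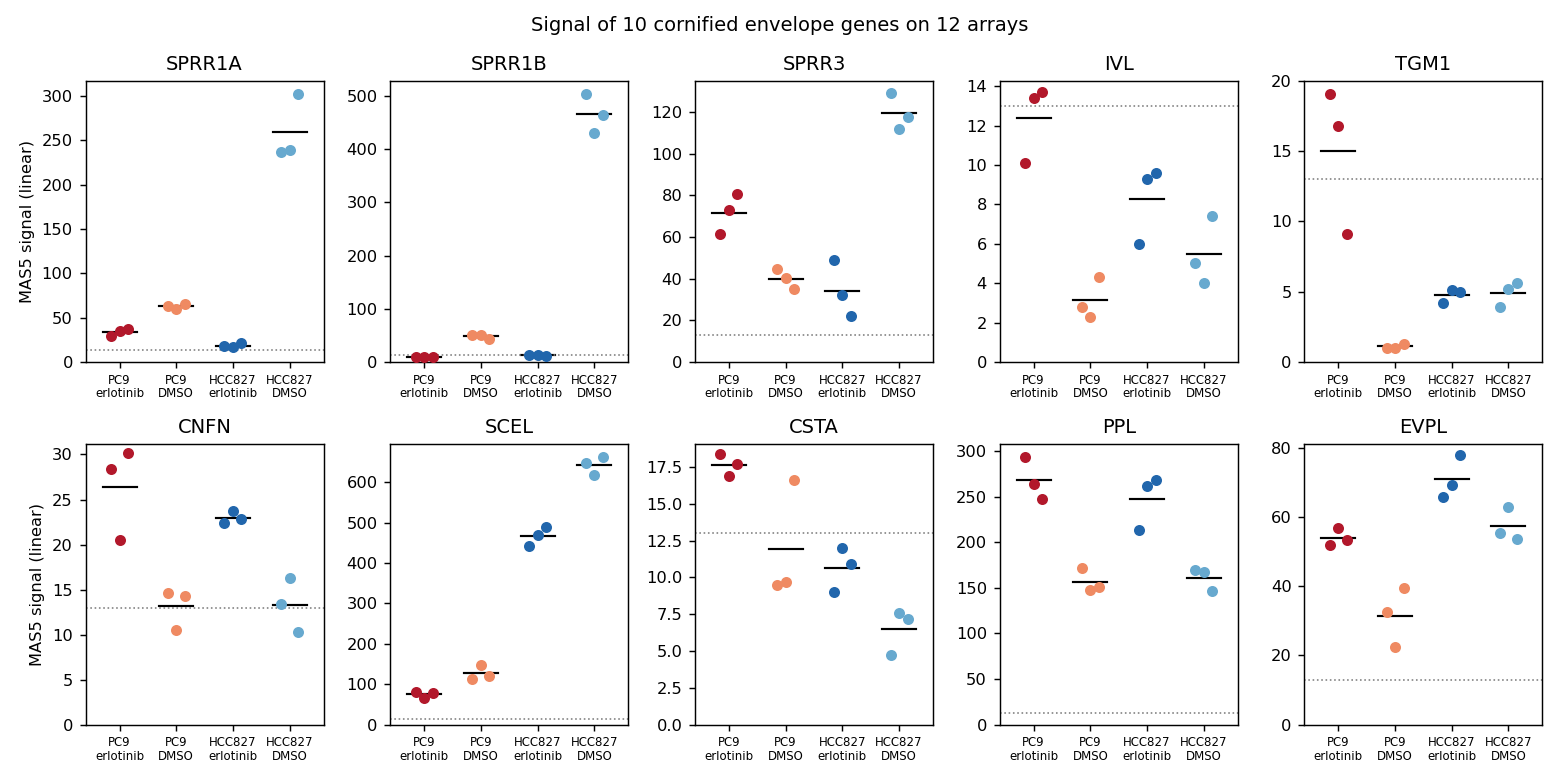
MAS5 signal (linear axis from 0, one axis per gene) of the 10 genes on the 12 arrays, with points for arrays, black lines for group means (n = 3) and a dotted line at the filter of 13. SPRR1A and SPRR1B are brightest in HCC827 in DMSO, at 236.7 to 302.6 and 429.7 to 503.6, and the points of IVL and TGM1 lie below 14 except for 2 TGM1 arrays of erlotinib-treated PC9, at 19.1 and 16.8.

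The small proline-rich proteins are short, repeat-rich precursors that bridge other envelope proteins. SPRR1B had signals of 12.4, 13 and 11.0 in erlotinib-treated HCC827, against 503.6, 429.7 and 464.4 in DMSO-treated HCC827. In PC9 its signals were 8.9, 9.7 and 9.6 in erlotinib and 50.1, 50.8 and 44.0 in DMSO. In both lines the erlotinib arrays lay at or below the table's median and every DMSO array lay well above it. The log2 differences were -4.56 ± 0.10 in HCC827 and -1.69 ± 0.10 in PC9 (SE), and the HCC827 value was the lowest of any of the 9 genes. The mean signal in erlotinib was 0.0260 times that in DMSO in HCC827 and 0.195 times in PC9, and with signals this close to the floor of the array the ratios depend on that floor.

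SPRR1A had signals of 17.5, 16.4 and 21.0 in erlotinib-treated HCC827, against 236.7, 239.4 and 302.6 in DMSO. In PC9 the values were 29.4, 35.4 and 36.8 in erlotinib and 63.6, 59.8 and 65.6 in DMSO. The 4 groups did not overlap, and the order of their means was HCC827 in DMSO, PC9 in DMSO, PC9 in erlotinib and HCC827 in erlotinib. The differences were -3.34 ± 0.12 in HCC827 and -0.77 ± 0.12 in PC9. These values come from the probe set 214549_x_at, whose suffix marks probes that can also match other transcripts. SPRR1A and SPRR1B are near-identical paralogs, so how much of either signal comes from the other gene is uncertain.

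The second SPRR1A probe set, 213796_at, gave smaller values in the same directions. It measured 8.4, 10.0 and 7.6 in erlotinib-treated HCC827 and 24.4, 19.9 and 25.6 in DMSO, a difference of -0.91 ± 0.12. In PC9 it measured 24.1, 24.9 and 25.5 in erlotinib and 34.5, 35.0 and 37.3 in DMSO, a difference of -0.41 ± 0.12. The 2 probe sets of SPRR1A thus agreed that the gene was lower in erlotinib in both lines, and disagreed on its size.

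SPRR3, best known from oesophageal and oral epithelium, went in opposite directions in the 2 lines. Its signals were 61.6, 72.8 and 80.5 in erlotinib-treated PC9 and 44.5, 40.1 and 34.8 in DMSO, a difference of 0.73 ± 0.17. They were 48.7, 32 and 21.8 in erlotinib-treated HCC827 and 129.0, 111.8 and 117.5 in DMSO, a difference of -1.64 ± 0.17. No array of one treatment overlapped the other in either line, although the erlotinib-treated HCC827 arrays spread more than 2-fold. That order ran opposite to the actin ratio, which was 2.45, 2.99 and 3.64 on the same 3 arrays, and with that ratio as a covariate the HCC827 difference was -1.0. The dimmer SPRR3 probe set, 232082_x_at, measured 4.2, 7.3 and 10.2 in erlotinib-treated HCC827 and 25.6, 22.6 and 15.0 in DMSO, a difference of -0.93 ± 0.22. In PC9 that probe set measured 5.9, 4.2 and 6.8 in erlotinib and 0.3, 8.4 and 4.7 in DMSO, so its groups overlapped and its difference was 0.18 ± 0.22. The PC9 value was 0.39 and not called under quantile normalization.

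Involucrin, the classic early precursor of the envelope, is encoded by IVL, which was too dim to be tested. Its signals were 10.1, 13.4 and 13.7 in erlotinib-treated PC9 and 2.8, 2.3 and 4.3 in DMSO. In HCC827 they were 6.0, 9.3 and 9.6 in erlotinib and 5.0, 4.0 and 7.4 in DMSO. The erlotinib-treated PC9 arrays stood above all 9 other arrays, and DMSO-treated HCC827 overlapped both of the other groups.

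TGM1 encodes the membrane-bound transglutaminase of keratinocytes that forms the crosslinks, and its loss causes lamellar ichthyosis. Its signals were 19.1, 16.8 and 9.1 in erlotinib-treated PC9, against 1.0, 1.0 and 1.3 in DMSO. In HCC827 they were 4.2, 5.1 and 5.0 in erlotinib and 3.9, 5.2 and 5.6 in DMSO. The erlotinib-treated PC9 arrays were separate from the rest, the DMSO-treated PC9 arrays were the lowest, and the HCC827 treatments overlapped. The difference was 1.31 ± 0.16 in PC9 and -0.01 ± 0.16 in HCC827. Because the signals are small, the PC9 value depends on the constant added before the log. It was 2.87 with a constant of 1 and 0.50 with a constant of 32.

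Cornifelin, the CNFN product, is a small envelope protein. CNFN had signals of 28.4, 20.5 and 30.2 in erlotinib-treated PC9 and 14.6, 10.5 and 14.3 in DMSO, a difference of 0.70 ± 0.14. It had 22.4, 23.7 and 22.8 in erlotinib-treated HCC827 and 13.4, 16.3 and 10.3 in DMSO, a difference of 0.55 ± 0.14. The erlotinib arrays of both lines shared one range and the DMSO arrays another. The HCC827 value was 0.29 under quantile normalization, 0.47 with the actin ratio as a covariate and 0.52 without erlotinib arrays 2 and 3, and none of these was called.

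Cystatin A, a cysteine protease inhibitor that becomes crosslinked into the envelope, is encoded by CSTA. Its signals were 18.4, 16.9 and 17.7 in erlotinib-treated PC9 and 9.5, 9.7 and 16.6 in DMSO, and the third DMSO array lay close to the erlotinib arrays. They were 9.0, 12 and 10.9 in erlotinib-treated HCC827, against 4.7, 7.6 and 7.2 in DMSO. The differences of 0.38 ± 0.15 in PC9 and 0.36 ± 0.15 in HCC827 were the smallest of the called genes' in either line. The PC9 value was 0.13 under quantile normalization and 0.22 under median centring, and neither was called. The HCC827 value was 0.23 under quantile normalization, 0.25 under median centring, 0.15 with a constant of 32 and 0.17 with the actin ratio as a covariate, and it was not called in any of these or with no filter. Both lines' calls were also lost when certain single arrays were left out.

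Sciellin, which SCEL encodes, is a precursor found at the periphery of stratified squamous cells. Its signals were 80.5, 65.5 and 78.1 in erlotinib-treated PC9 and 112.0, 147.8 and 121.3 in DMSO, a difference of -0.70 ± 0.10. They were 441.0, 469.3 and 488.1 in erlotinib-treated HCC827 and 646.8, 618.3 and 662.9 in DMSO, a difference of -0.46 ± 0.10. The 4 groups did not overlap, and both HCC827 groups stood above both PC9 groups. 2 further probe sets showed the same order of groups. 206884_s_at gave -1.0 ± 0.09 in PC9 and -0.58 ± 0.09 in HCC827, and 1554921_a_at gave -0.96 ± 0.10 in PC9 and -0.71 ± 0.10 in HCC827. Another, 1554920_at, stayed at 2.6 or below on every array.

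Periplakin and envoplakin are plakin proteins that pair with each other and form the scaffold on which the envelope begins. PPL, which encodes periplakin, had signals of 294.0, 263.8 and 247.3 in erlotinib-treated PC9 and 171.8, 147.2 and 151.3 in DMSO, a difference of 0.75 ± 0.10. It had 213.2, 261.6 and 267.8 in erlotinib-treated HCC827 and 169.3, 167.4 and 146.1 in DMSO, a difference of 0.59 ± 0.10. As for CNFN, the arrays of both lines fell into one range for erlotinib and another for DMSO. With the actin ratio as a covariate the HCC827 difference was 0.37 and not called.

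EVPL, which encodes envoplakin, had signals of 51.8, 56.9 and 53.3 in erlotinib-treated PC9 and 32.5, 22.3 and 39.5 in DMSO, a difference of 0.68 ± 0.14. It had 65.7, 69.1 and 77.9 in erlotinib-treated HCC827 and 55.4, 62.8 and 53.7 in DMSO. The HCC827 arrays did not overlap, but the difference of 0.27 ± 0.14 was not called. The PC9 value was 0.34 under quantile normalization and remained called. Median centring moved the median of all tested genes by -0.17 in PC9 and -0.12 in HCC827, and none of the called differences of the 9 genes in either line changed sign under it or under quantile normalization.

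**Figure D2:**
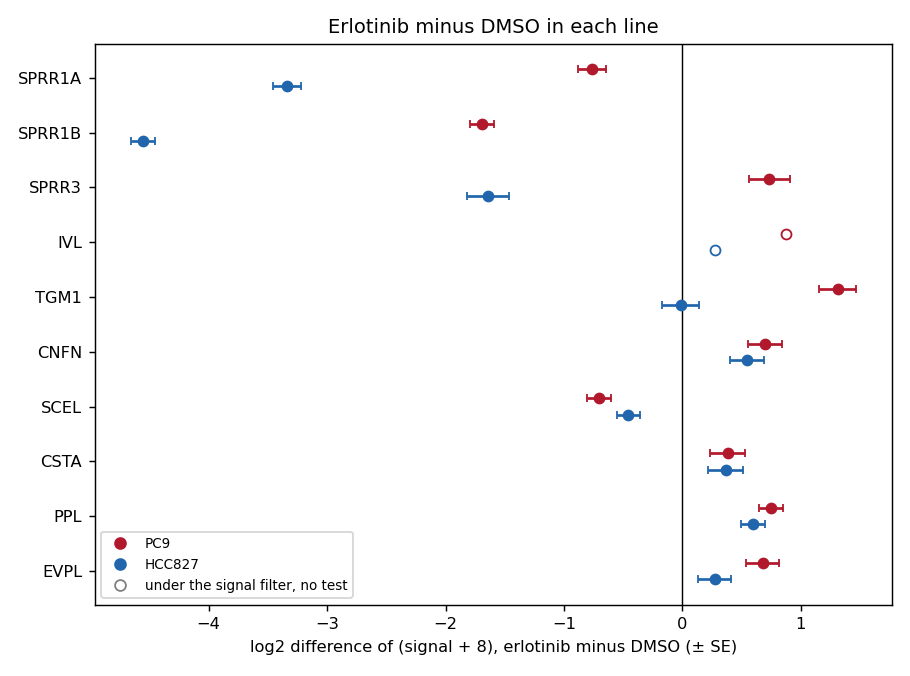
Log2 difference of (signal + 8), erlotinib minus DMSO, for each gene in PC9 (red) and HCC827 (blue), with bars for the SE (n = 3 arrays per group) and an open symbol for IVL, which was not tested. SPRR1B and SPRR1A lie far to the left in HCC827, at -4.56 and -3.34, SPRR3 lies on opposite sides of 0 in the lines, and TGM1 is at 1.31 in PC9 and -0.01 in HCC827.

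The difference between the lines' responses, the PC9 difference minus the HCC827 difference, is also built from contrasts known when the genes were chosen, and it is likewise a description. It was 2.86 ± 0.14 for SPRR1B, 2.58 ± 0.17 for SPRR1A, 2.38 ± 0.25 for SPRR3 and 1.32 ± 0.22 for TGM1, and these 4 were called higher. In erlotinib SPRR1B averaged 9.4 in PC9 and 12.1 in HCC827, close to the floor of the array. Its value therefore depends on that floor and on the difference between the lines in DMSO, -3.07. The SPRR1A value was 0.50 and the SPRR3 value 1.11 on their second probe sets, and the TGM1 value was 0.50 with a constant of 32. The other 5 tested genes were not called, with values between -0.25 for SCEL and 0.40 for EVPL. SCEL was at -0.42 on its probe set 206884_s_at and at -0.51 under quantile normalization, and both of these were called. On 1554921_a_at it was at -0.25 and not called. Over all tested genes 21.2% were called higher and 23.9% lower in this comparison.

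In DMSO, 6 of the 9 tested genes were lower in PC9 than in HCC827, 1 was higher and 2 were not called, where 39.4% of all tested genes were lower and 36.8% higher. SPRR1B differed by -3.07 ± 0.10, SCEL by -2.28 ± 0.10, SPRR1A by -1.91 ± 0.12 and SPRR3 by -1.42 ± 0.17. The lower values of EVPL, at -0.75 ± 0.14, and TGM1, at -0.50 ± 0.16, were smaller. CSTA was the gene that was higher, by 0.45 ± 0.15, while CNFN and PPL differed by -0.01 and -0.04. The SPRR1A direction depended on the probe set. On 213796_at DMSO-treated PC9 was 0.48 ± 0.12 above DMSO-treated HCC827, with values of 34.5, 35.0 and 37.3 against 24.4, 19.9 and 25.6.

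The difference between the lines in erlotinib follows arithmetically from the contrasts above, being the DMSO difference plus the PC9 response minus the HCC827 response, and it too is a description. SCEL was lower in PC9 than in HCC827, by -2.52 ± 0.10, and EVPL was lower by -0.35 ± 0.14. SPRR3 was higher in PC9 by 0.96 ± 0.17, TGM1 by 0.82 ± 0.16, SPRR1A by 0.67 ± 0.12 and CSTA by 0.46 ± 0.15. SPRR1B, CNFN and PPL were not called, at -0.21, 0.14 and 0.12. Among all tested genes 36.3% were higher and 40.1% lower in PC9 in erlotinib, beside the 4 higher and 2 lower of 9 here, and nothing is read from those shares.

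2 of these calls between erlotinib-treated lines were lost under other settings. SPRR3 was at -0.15 and not called on its dimmer probe set, and at 0.35 and not called with the actin ratio as a covariate. EVPL was at -0.27 under median centring and at -0.28 without HCC827 erlotinib replicate 3, and neither was called. SPRR1A kept its direction on its second probe set, at 0.98 ± 0.12. PC9 was thus lower than HCC827 for SPRR1A in DMSO and higher in erlotinib on the brighter probe set, and higher in both on the dimmer one.

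**Figure D3:**
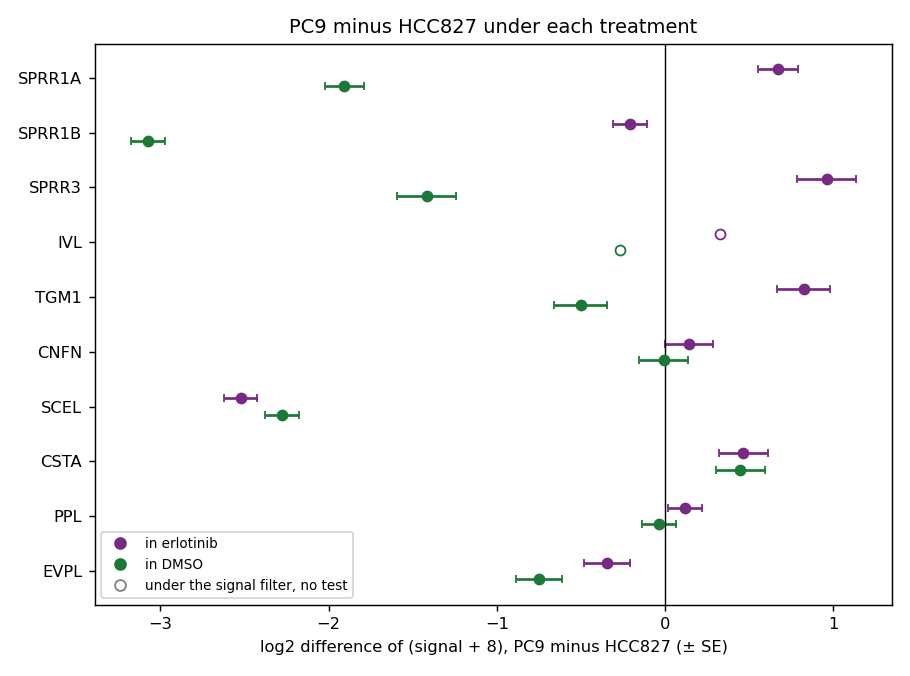
Log2 difference of (signal + 8), PC9 minus HCC827, in erlotinib (purple) and in DMSO (green) for each gene, with bars for the SE and open symbols for IVL, which was not tested. SCEL stays near -2.5 in erlotinib and -2.3 in DMSO, while SPRR1B is at -0.21 in erlotinib and -3.07 in DMSO.

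**Figure D4:**
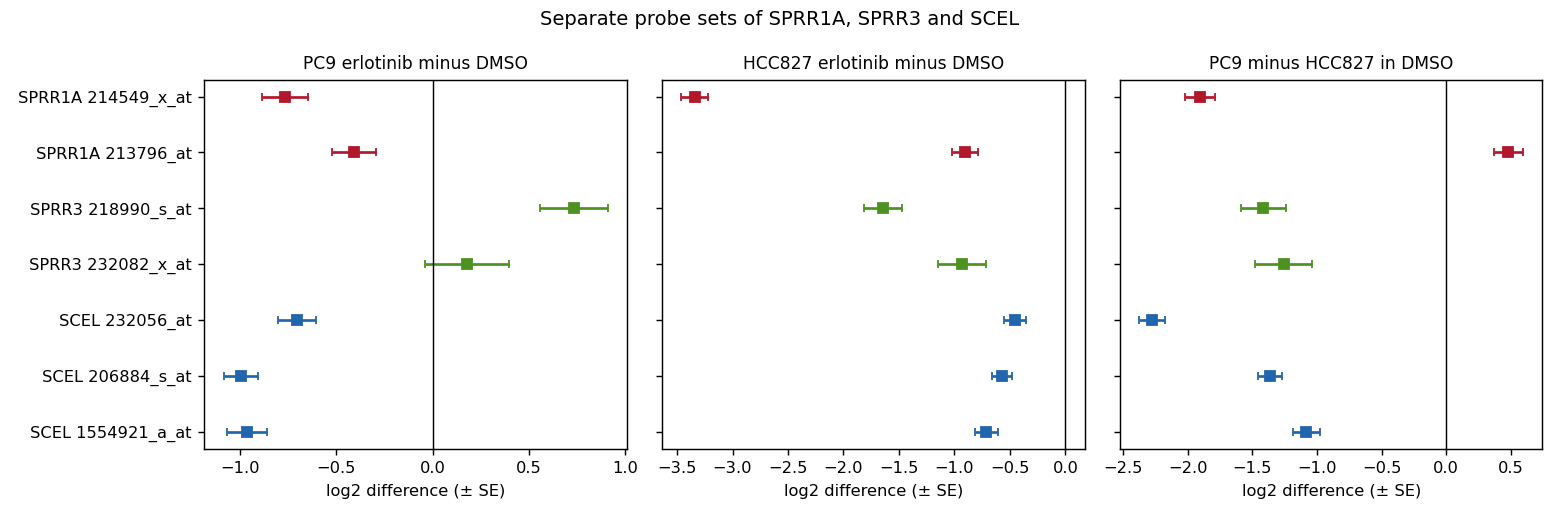
Log2 differences (± SE) of each SPRR1A, SPRR3 and SCEL probe set with measurable signal, in 3 panels for PC9 erlotinib minus DMSO, HCC827 erlotinib minus DMSO and PC9 minus HCC827 in DMSO. The 2 SPRR1A probe sets fall on opposite sides of 0 in the last panel, at -1.91 and 0.48, and the 3 SCEL probe sets fall on the same side in every panel.

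Correlations over the 12 arrays were high for some pairs of the genes and near 0 for others, and no grouping was tested. These correlations are descriptions, since the points share the 4 groups and the array scaling. SPRR1A and SPRR1B had a Pearson correlation of 0.968, and SPRR3 had 0.756 with SPRR1A and 0.680 with SPRR1B. The SPRR1A values here are from its brighter probe set, whose probes can also match other transcripts. How much of the 0.968 comes from signal shared with SPRR1B was therefore not tested. On the dimmer SPRR1A probe set DMSO-treated PC9 was brightest, with a mean of 35.6 against 23.3 in DMSO-treated HCC827. The correlation of that probe set with SPRR1B is not given here. CNFN and PPL had 0.916, and IVL had 0.816 with TGM1 and 0.815 with PPL. SPRR1B had -0.759 with PPL and -0.775 with CSTA, and the lowest value was -0.809, between SCEL and CSTA.

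The 5 tested genes most like SPRR1B over the 12 arrays were MST1R, ABCA1, MMP10, KCNK2 and HMCN1, with correlations between 0.974 and 0.980. ABCA1, a cholesterol exporter, differed by -2.24 in HCC827 and by -1.05 in PC9, and MST1R, the receptor of macrophage-stimulating protein, by -1.15 in HCC827 and by -0.43 in PC9. The 5 most like TGM1 were CORO2A, ZBTB1, ZBED5, LAMC1 and SMPDL3A, with correlations between 0.953 and 0.961. Both sets of genes were picked for their likeness on these arrays, so their differences restate the patterns of SPRR1B and TGM1.

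The counts in the wider lists below stand beside a background, over all tested genes, of 36.3% higher and 28.3% lower in PC9 and of 32.2% higher and 19.5% lower in HCC827, and nothing is called particular to a list. The lists were also chosen with earlier results of these arrays known, and most genes named from them were picked for the largest differences. Their adjusted p-values are limma's over all tested genes. They describe these arrays and are not tests of genes chosen beforehand. Of 48 other envelope precursors, 7 were tested, 18 were under the filter, 1 was represented solely by multi-gene probe sets and 22 were not analysed here. In PC9, 4 of the 7 rose, 2 fell and 1 was not called, with a median of 0.33. In HCC827, 2 rose, 2 fell and 3 were not called, with a median of 0.07. PI3, which encodes the elastase inhibitor elafin, had 785 ± 20.4 in erlotinib-treated PC9 and 2245 ± 222 in DMSO, a fall of 1.50 ± 0.12 on the log2 scale (adjusted p = 2.31e-08). It was low in HCC827, at 14.1 ± 3.95 in erlotinib and 17.1 ± 3.17 in DMSO, with a difference of -0.20 (adjusted p = 0.201).

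CST6, which encodes cystatin M, an inhibitor of the proteases that process the envelope, rose in both lines, by 0.68 ± 0.06 in PC9 (adjusted p = 5.96e-08) and by 0.90 ± 0.06 in HCC827 (adjusted p = 4.12e-09). TCHH and SBSN each passed the filter through 1 group alone, so their difference in that group's line is a description with no p-value. TCHH, which encodes trichohyalin of the hair follicle sheath, had means of 15.4 in erlotinib-treated PC9 and 0.667 in DMSO, a difference of 1.41 ± 0.17, and was at 0.07 in HCC827 (adjusted p = 0.735). SBSN, which encodes suprabasin, had means of 7.83 in erlotinib-treated HCC827 and 24.1 in DMSO, a difference of -1.03 ± 0.15, and was at -0.22 in PC9 (adjusted p = 0.215).

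Of 7 other transglutaminases 2 were tested, TGM2 and TGM5. TGM2, the widely expressed tissue transglutaminase, fell in both lines. Its mean was 413 ± 31.2 in erlotinib-treated PC9 and 1279.7 ± 26.1 in DMSO, a fall of 1.61 ± 0.07 (adjusted p = 7.49e-12). In HCC827 it was 111 ± 2.8 in erlotinib and 429.5 ± 20.3 in DMSO, a fall of 1.88 ± 0.07 (adjusted p = 3.85e-12). The keratinocyte enzyme TGM5 fell by 0.37 ± 0.12 in PC9 (adjusted p = 0.015) and was at -0.03 in HCC827 (adjusted p = 0.832).

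The outer face of the envelope carries lipids, and 9 of 19 genes of that lipid envelope and of ceramide handling were tested. In PC9, 3 rose, 1 fell and 5 were not called, and in HCC827, 3 rose, 4 fell and 2 were not called. FA2H, which hydroxylates the fatty acids of ceramides, rose by 1.87 ± 0.10 in PC9 (adjusted p = 1.17e-10) and fell by 0.61 ± 0.10 in HCC827 (adjusted p = 8.62e-05). ABCA12, which loads lipids into lamellar granules, fell by 2.27 ± 0.15 in HCC827 (adjusted p = 3.60e-09), where its means were 17.0 in erlotinib and 113 in DMSO. In PC9 it averaged under 4 in both groups, at -0.19 (adjusted p = 0.276). SLC27A4, a fatty acid transporter, fell by 1.00 ± 0.16 in PC9 (adjusted p = 3.96e-05) and was at -0.14 in HCC827 (adjusted p = 0.495). SMPD1, which encodes acid sphingomyelinase, rose in both, by 0.81 in PC9 (adjusted p = 6.18e-04) and by 0.86 in HCC827 (adjusted p = 5.24e-04).

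Among 18 desquamation proteases and inhibitors, 11 were tested. In PC9 3 rose, 6 fell and 2 were not called, and in HCC827 4 rose, 3 fell and 4 were not called. PRSS8, which encodes prostasin, a membrane serine protease of epidermis, rose in both lines, by 1.50 in PC9 (adjusted p = 7.73e-08) and by 0.92 in HCC827 (adjusted p = 3.54e-05). CASP14, the caspase of cornifying keratinocytes, passed the filter through DMSO-treated PC9 alone. Its means were 4.37 in erlotinib-treated and 35.4 in DMSO-treated PC9, a difference of -1.81 ± 0.14, and at most 1.23 in HCC827. SLPI, a secreted protease inhibitor, fell by 1.72 ± 0.07 in HCC827 (adjusted p = 1.55e-11) and by 0.24 ± 0.07 in PC9 (adjusted p = 0.00846). The kallikrein gene KLK10 rose by 0.86 in PC9 (adjusted p = 8.68e-07) and by 0.95 in HCC827 (adjusted p = 5.62e-07).

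8 of 13 desmosome genes were tested, of which 1 rose, 2 fell and 5 were not called in PC9, and 4 rose, 1 fell and 3 were not called in HCC827. JUP, which encodes plakoglobin, rose by 1.09 in PC9 (adjusted p = 2.63e-09) and by 0.59 in HCC827 (adjusted p = 7.98e-06). The desmosomal cadherin DSC3 rose by 2.31 ± 0.15 in HCC827 (adjusted p = 3.37e-09), with means of 264 in erlotinib and 46.6 in DMSO, and averaged under 3 in both PC9 groups. The plakophilin gene PKP3 fell by 0.74 in PC9 (adjusted p = 2.47e-04) and by 0.69 in HCC827 (adjusted p = 7.46e-04). DSC2, another desmosomal cadherin, fell by 0.36 in PC9 (adjusted p = 2.16e-04) and was at 0.01 in HCC827 (adjusted p = 0.946).

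8 of 15 squamous keratins were tested, of which 3 rose, 3 fell and 2 were not called in PC9, and 2 rose, 3 fell and 3 were not called in HCC827. KRT16, a keratin of stressed and hyperproliferative epidermis, went in opposite directions, as SPRR3 did. Its mean was 309.9 ± 39.7 in erlotinib-treated PC9 and 96.4 ± 19.2 in DMSO, a rise of 1.62 ± 0.16 (adjusted p = 1.52e-07). In HCC827 it was 15.7 ± 5.33 in erlotinib and 156 ± 16.1 in DMSO, a fall of 2.80 ± 0.16 (adjusted p = 4.79e-10). KRT5, a keratin of basal cells, fell by 1.49 in PC9 (adjusted p = 1.53e-07). KRT4, a keratin of mucosal epithelium, rose by 1.51 in PC9 (adjusted p = 7.43e-07) and by 1.17 in HCC827 (adjusted p = 2.22e-05). KRT80 rose by 0.85 in PC9 (adjusted p = 1.78e-08) and by 0.47 in HCC827 (adjusted p = 2.90e-05).

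25 of 29 transcription factors and receptors that regulate squamous genes were tested. In PC9, 13 rose, 9 fell and 3 were not called, and in HCC827, 14 rose, 5 fell and 6 were not called, beside the background of 36.3% higher and 28.3% lower in PC9 and 32.2% and 19.5% in HCC827. FOSL1, an AP-1 factor, fell by 2.19 ± 0.14 in PC9 (adjusted p = 1.49e-09) and by 0.81 ± 0.14 in HCC827 (adjusted p = 1.96e-04). Of the other 6 AP-1 genes in the list, FOS, FOSB, FOSL2, JUN and JUND rose in both lines, and JUNB rose by 1.26 in PC9 and was at 0.07 in HCC827. The smallest of these rises were 0.18 for JUN in PC9 and 0.20 for JUND in HCC827. Rises that small are near the shift from median centring, -0.17 in PC9 and -0.12 in HCC827. For the wider lists no values under other settings are given. FOSB rose by 1.93 ± 0.20 in PC9 (adjusted p = 3.23e-07) and by 2.49 ± 0.20 in HCC827 (adjusted p = 3.47e-08). ELF3, an epithelial ETS factor, rose by 1.84 ± 0.08 in PC9 (adjusted p = 4.97e-12) and by 0.58 ± 0.08 in HCC827 (adjusted p = 1.09e-05). MAF, a factor of late epidermal differentiation, rose by 2.14 ± 0.20 in HCC827 (adjusted p = 2.12e-07) and was at -0.30 in PC9 (adjusted p = 0.201).

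**Figure D5:**
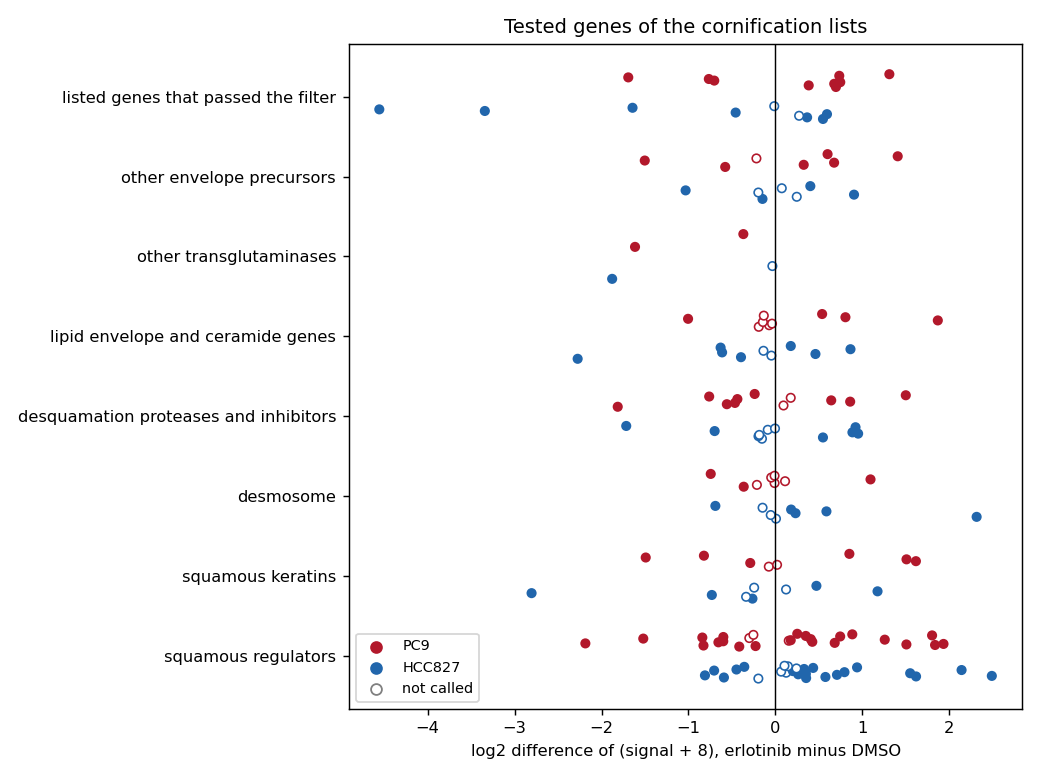
Log2 difference of (signal + 8), erlotinib minus DMSO, for the tested genes of each list in PC9 (red) and HCC827 (blue), filled where called and open where not. The 9 tested envelope genes have points on both sides of 0, as does each wider list except the other transglutaminases, whose 2 genes lie below 0 in both lines, and the HCC827 values of SPRR1B and SPRR1A lie furthest left, at -4.56 and -3.34.

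The epidermal differentiation complex holds IVL, SPRR1A, SPRR3 and SPRR1B among 63 genes between S100A10 and S100A1, bounds that were set after the gene lists. 14 of the 59 other genes in that stretch were tested, 22 were under the filter and 23 were not analysed here. In PC9, 11 of the 14 fell, TCHH was called higher and 2 were not called, with a median of -0.67, where 28.3% of all tested genes fell and 36.3% rose. S100A5 and S100A1 passed the filter through DMSO-treated PC9 alone, and TCHH through erlotinib-treated PC9 alone. Their PC9 differences are therefore descriptions, and nothing is read from this count. In HCC827, 9 fell and the other 5 were not called, with a median of -0.34, where 19.5% of all tested genes fell and 32.2% rose. All tested neighbours other than TCHH were S100 genes, which encode small calcium-binding proteins. S100A9 fell by 3.77 ± 0.11 in PC9 and by 1.30 ± 0.11 in HCC827, and was chosen after its values were seen. Its PC9 means were 61.4 in erlotinib and 935 in DMSO. In HCC827 they were 1.10 in erlotinib and 14.5 in DMSO, near or under the table's median. The envelope genes LORICRIN and FLG in the same stretch were under the filter.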

How the data were processed

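RNA from PC9 and HCC827 cells was extracted with a column kit, amplified and biotin-labelled with NuGEN reagents, and hybridised to 12 whole-genome 3′ arrays, per the labels' protocols. The deposited values are linear MAS5 intensity signals made by the authors with the tool MAS5, per the submitters' processing notes; each array carries 54675 probe sets and has the same trimmed mean when 2% is left out at each end. Array number, 3 per group, limits the precision. A genome build for the array annotation is not given in the sources used here.

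Of the probe sets, 62 were controls, 41091 had 1 gene symbol, 1801 several and 11721 none. The brightest single-symbol probe set by mean over the 12 arrays stood for each of 19775 genes, with the other probe sets as a check. Genes with at least 1 group mean of 13, the table's median, were tested on log2(signal + 8) with limma 3.58.1 in R 4.3.3, with 1 mean per group, a trended prior, and Benjamini-Hochberg adjustment over all 13185 tested genes at 0.05. The script was checked on simulated data. Alternatives were constants of 1 and 32, no filter and a stricter one, quantile normalization, median centring, other probe sets, the actin ratio, a replicate block and leaving out arrays.

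The members and lists were chosen with earlier results of these data known. By rule, the genes named in each wider list were up to 4 called genes with the largest differences in either line. Further genes called with opposite signs in the lines were added where a list held 3 or fewer. The 5 genes most correlated with SPRR1B and with TGM1 were also named, and DUSP6 served as a check of the drug. Outside this rule, the remaining AP-1 genes of the regulator list were named beside FOSL1 and FOSB. Marker genes and genes of the chromosome 1 stretch were likewise outside it, and S100A9 was chosen after its values were seen. Promoter sequences are RefSeq's for GRCh38.p14, and 6 of the 10 genes matched.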

Additional observations from a re-analysis of the deposited data

Results flagged for a closer look

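The PC9 and HCC827 changes were compared by limma's interaction test, corrected over all tested genes. Of the 26 genes named from the wider lists, 20 were called. Of the 9 tested envelope genes 4 passed the same threshold, which is a description, since their choice used these contrasts. TGM1, 1 of these 4, also passed the filter through erlotinib-treated PC9 alone. Over all tested genes 21.2% were called higher and 23.9% lower in this comparison. The listed genes were named for large differences or for opposite signs in the lines, so nothing is read from their count. Values are the PC9 difference minus the HCC827 difference on the log2 scale. For the envelope genes, whose choice used both contrasts, they are descriptions: SPRR1B 2.86, SPRR1A 2.58, SPRR3 2.38 and TGM1 1.32. The SPRR1B value depends on the floor of the array, which its erlotinib signals approached in both lines.

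Among envelope precursors of the wider list, the values were 1.33 for TCHH, 0.81 for SBSN, -0.23 for CST6 and -1.31 for PI3. TCHH, SBSN and CASP14 each passed the filter through 1 group alone, and their values are descriptions. TGM2, which fell in both lines, differed by 0.26. The lipid genes FA2H, ABCA12 and SLC27A4 differed by 2.48, 2.08 and -0.87. Of the proteases and inhibitors, SLPI differed by 1.48, PRSS8 by 0.58 and CASP14 by -1.66. The desmosome genes JUP, DSC2 and DSC3 differed by 0.51, -0.37 and -2.53. The keratin values were 4.42 for KRT16, 0.38 for KRT80 and -1.61 for KRT5. ELF3, FOSL1 and MAF, which encode transcription factors, differed by 1.26, -1.38 and -2.44. FA2H and KRT16 were called in opposite directions in the lines, as SPRR3 was.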

How the results depend on the processing

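Of 1056 values of the tested envelope genes under other settings, 1006 kept their side of the threshold, 39 lost the call and 9 gained it. The other 2 reversed the sign of a called difference. Among the 1006, called values also kept their direction, but some uncalled values changed sign. TGM1 in HCC827, for example, ranged from -0.21 to 0.03. The 2 reversals came from second probe sets: SPRR1A between the lines in DMSO, at 0.48, and SPRR3 between the lines in erlotinib, at -0.15. With the stricter filter, at the 70th percentile or 83.5, the called genes numbered 5 against 9 in PC9, 4 against 7 between lines in DMSO and 3 against 6 between lines in erlotinib, because fewer genes were tested. With the actin ratio as a covariate, 4 genes against 7 were called in HCC827. The cause of that loss was not tested. CSTA was the least stable gene. Its PC9 call was lost at a constant of 1, at 0.57, and without PC9 DMSO replicate 1 or 2 or PC9 erlotinib replicate 1 or 3, at 0.30 to 0.38. Its HCC827 call was lost without any of 8 single arrays, at 0.27 to 0.42. Between lines in DMSO its call was lost without PC9 DMSO replicate 3, at 0.29, and without HCC827 DMSO replicate 1, at 0.35. EVPL in erlotinib between the lines was -0.36 to -0.28 and not called without PC9 erlotinib replicate 1 or 3 or HCC827 erlotinib replicate 2 or 3. EVPL was called in HCC827 without PC9 DMSO replicate 2, and its difference between lines was 0.55 and called without PC9 DMSO replicate 3. Leaving out 1 array at a time gave 8 to 9 called genes in PC9, 6 to 8 in HCC827, 6 to 7 between lines in DMSO, 5 to 6 between lines in erlotinib and 4 to 5 in the difference of responses. The genes counted were not always the same. Without PC9 erlotinib replicate 1, TGM1 fell under the filter and IVL passed it. The 8 genes called in PC9 then included IVL, and neither TGM1 nor CSTA. With a replicate block the counts were 9, 7, 7, 6 and 4 in the same order, equal to those without it. Same-numbered arrays showed no strong shared deviation, with correlations from -0.26 to 0.19. Such correlations cannot show whether same-numbered samples were cultured or processed together, which no label states. Array number and signals near the table's median limit IVL, TGM1, CNFN and CSTA.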
